A study of Homo sapiens with 15 samples.

Results

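Collagen chain genes each encode a single α chain of a collagen trimer and carry a name made of COL, a number, A and a number. Every gene of the deposited tables with a name of this form was taken, which gave 38 of 18179 genes. Of the 38, 10 encode fibrillar chains, 7 encode chains of the basement membrane and its anchoring fibrils, 8 encode fibril-associated (FACIT) chains, 3 encode transmembrane chains and 10 encode other chains. COL24A1 stood only in the table of the 320 µg/mL dose, and the table of the 160 µg/mL dose held the remaining 37.

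RNA-seq was performed on HaCaT cells, an immortalised line of human skin keratinocytes, that were treated for 24 h with silver sulfide nanoparticles (Ag2S NPs) or with such particles doped with lithium (Li-doped Ag2S NPs). Both particles were given at 160 and 320 µg/mL, and each of these 4 groups and the untreated control was sequenced in 3 libraries. These are numbered 1 to 3 for control, 4 to 6 and 7 to 9 for Ag2S NPs at 160 and 320 µg/mL, and 10 to 12 and 13 to 15 for Li-doped Ag2S NPs at these doses. All groups share this cell line, and nothing in the labels says that the libraries of a group came from separate cultures, so p-values measure only the spread between these libraries, which may be technical. The comparisons ask which collagen chains differ between treated and untreated keratinocytes, between the doses, and between the particles at a matched dose, and those against control share its 3 libraries.

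Collagen chains fold into trimers in the endoplasmic reticulum after hydroxylation of proline and lysine. Some trimers, such as the usual one of type I collagen, hold chains from more than a single gene. In skin, keratinocytes make the collagens that fasten them to the layer below: type XVII in hemidesmosomes, type IV in the basement membrane and type VII in the anchoring fibrils. Dermal fibroblasts are the main source of the fibrillar types I and III.

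Levels are given as FPKM, the number of fragments for each kilobase of transcript relative to all mapped fragments. The unit is per length, so levels of different genes can be set side by side, and the read depth behind them is unknown. A gene was tested where its mean FPKM over the 9 libraries of a dose, or over all 15 for comparisons between doses, was at least 1. Differences are log2 fold changes of FPKM plus 0.1 with their standard errors, from limma, and a gene was called where its p-value, adjusted over all genes tested by the Benjamini-Hochberg method, was under 0.05. Intervals of a difference are 95% and not adjusted. In each fit 17 of the 38 collagen chain genes were tested. The median log2 fold change over all genes tested against control was -0.14 and -0.19 with Ag2S NPs at 160 and 320 µg/mL and -0.19 and -0.26 with Li-doped Ag2S NPs, and changes are to be read relative to these shifts.

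All 10 keratinocyte markers had a mean FPKM of at least 1 in every group. Their summed FPKM was 8822 to 9140 in control and 10196 to 27822 in treated libraries. Most of this sum was KRT5 and KRT14, with means of 4128 and 2635 FPKM in control. Against control 6 of the 10 rose and 0 fell with Ag2S NPs at 160 µg/mL, and 7 rose and 0 fell at 320 µg/mL (limma). With Li-doped Ag2S NPs 6 rose and 3 fell at 160 µg/mL, and 6 rose and 0 fell at 320 µg/mL. Of 10 fibroblast markers 8 were in both tables, and their summed FPKM was 48.4 to 53.8 in control, 37.4 to 42.8 and 28.3 to 29.6 with Ag2S NPs at 160 and 320 µg/mL, and 14.8 to 21.3 and 29.3 to 35.2 with Li-doped Ag2S NPs. This sum was lower in every treated group than in control, and 4 of these markers were tested, of which 0 rose and 2 to 3 fell in each comparison against control (limma). Over all genes tested 11.5% to 22.6% rose and 23.8% to 44.6% fell in these comparisons. FBLN1 had mean levels of 37.1 FPKM in control and 14.8 to 32.5 in the treated groups, DCN 7.08 and 0.07 to 2.15, LUM 5.19 and 0.04 to 1.89, and TWIST2 2.11 and 1.96 to 3.03, while PDGFRB, PDGFRA, FAP and DPT were at 0.42 or less in each group. LUM passed the filter at 320 µg/mL only through control, at 5.19 FPKM against 0.29 with either particle, and DCN largely so. Their falls are therefore no separate support for a fall of these markers. PDGFRB, PDGFRA, FAP and DPT were too low to be tested, so a rise could not be called for them. Of 6 endothelial markers 5 summed to 3.47 to 4.01 FPKM in control and 0.15 to 0.81 in treated libraries, of 6 melanocyte markers 5 summed to 1.86 to 3.37 over all libraries, and of 6 macrophage markers 4 summed to 9.99 to 30 FPKM. Most of the last sum was CD68, with group means of 10.1 to 26.6 FPKM. The part of these markers in the results was not tested. In bulk RNA of a cell line, fewer cells that express a gene and less of its RNA per cell cannot be told apart. Libraries 6, 12 and 15 were low beside the other libraries of their groups for several long collagen genes. Over all genes, the median difference of library 6 from the other libraries of its group was 0.12 on the log2 scale in the shortest of 4 equal groups of genes by transcript length and -0.22 in the longest. These medians were 0.11 and -0.30 for library 15 and -0.07 and -0.02 for library 12. Other libraries differed by length as well, with -0.11 and 0.19 for library 4 and -0.09 and 0.12 for library 7. Library 9 had 0.08 and -0.11, and library 14 had -0.07 and 0.20. The values of libraries 4 and 14 are set against groups that hold libraries 6 and 15. The longest annotated transcript of 14 of the 17 tested collagen genes falls in the longest group, which starts at 5323 bases. The part of such length differences in the results was not tested beyond leaving libraries out.

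COL17A1 (ENSG00000065618, chr10:104031286-104085957, minus strand, GRCh38), the transmembrane collagen of the hemidesmosome, had the highest level of all collagen chains in every library, and COL7A1 (ENSG00000114270, chr3:48564073-48595267, minus strand), the chain of anchoring fibrils, had the second. The count setting is not stated to use strand, and 9 of the 17 tested genes overlap a gene on the other strand, so reads of such pairs may not be told apart. The summed FPKM of the 38 genes was 678 to 705 in control, 727 to 995 and 1078 to 1191 with Ag2S NPs at 160 and 320 µg/mL, and 745 to 897 and 990 to 1224 with Li-doped Ag2S NPs. COL17A1 made up 56.4% ± 1.36 (SD, n = 3) of this sum in control and 39.9% ± 0.65 and 43.1% ± 1.95 with Ag2S and Li-doped Ag2S NPs at 320 µg/mL. The fibrillar chains summed to 29.3 ± 1.16 FPKM in control and to 128 ± 3.32 and 118 ± 14.8 at 320 µg/mL, and the basement membrane chains to 196 ± 7.2, 444 ± 32.9 and 431 ± 67.6.

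**Figure D1:**
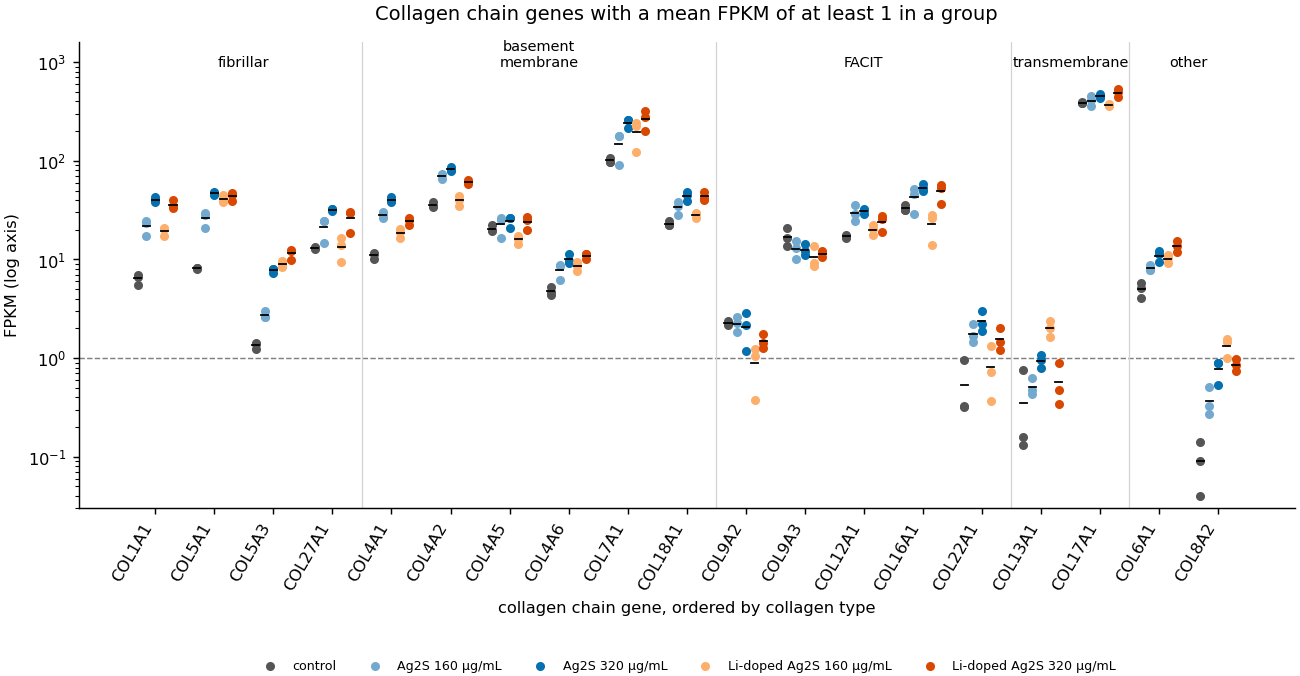
FPKM on a log axis for the 19 collagen chain genes with a mean of at least 1 in a group, by collagen type; each point is a library, short black lines are group means and the dashed line marks 1. COL17A1 lies near 390 FPKM in control, above all other genes, and all treated libraries of COL1A1, COL5A1, COL5A3 and COL8A2 lie above the controls.

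Of the 38 genes, 19 reached a mean of 1 FPKM in at least 1 group: 4 fibrillar, 6 basement membrane, 5 FACIT, 2 transmembrane and 2 other chains. The 19 below 1 in every group were the fibrillar COL1A2, COL2A1, COL3A1, COL5A2, COL11A2 and COL24A1, the basement membrane chain COL4A4, the FACIT chains COL19A1, COL20A1 and COL21A1, the transmembrane COL23A1, and the other chains COL6A2, COL6A3, COL6A5, COL6A6, COL8A1, COL10A1, COL26A1 and COL28A1. Their highest group means were 0.62 for COL21A1, 0.45 for COL4A4, 0.44 for COL26A1, 0.37 for COL6A2, 0.31 for COL11A2, 0.30 for COL5A2, 0.27 for COL2A1, 0.24 for COL8A1, 0.16 for COL20A1, 0.12 for COL10A1 and 0.11 for COL28A1, and those of the other 8 were 0.10 or less. Partner chains of expressed genes were among them. COL1A2, the second chain of type I collagen, was at no more than 0.09 FPKM in any library and COL3A1 at no more than 0.04, while COL1A1 reached 42.7. Type V and type VI collagen showed the same gap, with COL5A2 at no more than 0.49 and COL6A2 and COL6A3 at no more than 0.41 and 0.12, against highest values of 48.4 for COL5A1 and 15.4 for COL6A1.

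Against control, 11 of the 17 tested collagen genes rose and 0 fell with Ag2S NPs at 160 µg/mL, where 11.5% of all genes tested rose and 23.8% fell; at an unadjusted p under 0.05 the count that fell was also 0. With Li-doped Ag2S NPs at 160 µg/mL 8 rose and 2 fell, where 22.6% of all genes rose and 40.6% fell. At 320 µg/mL 14 rose and 1 fell with either particle, where 16.2% of all genes rose and 36.2% fell with Ag2S NPs. With the doped particle 17% of all genes rose and 44.6% fell at this dose. The median log2 fold change of the 17 was 0.69 and 1.12 with Ag2S NPs at 160 and 320 µg/mL and 0.30 and 0.96 with Li-doped Ag2S NPs. Scaling that set the median ratio of each library to the average library to 1 gave another split. With it 17.2% of all genes rose and 12.8% fell with Ag2S NPs at 160 µg/mL, 24.1% and 21.5% at 320 µg/mL, 30.5% and 30.1% with Li-doped Ag2S NPs at 160 µg/mL and 28.3% and 26% at 320 µg/mL, and the medians of the collagen genes were 0.84, 1.30, 0.48 and 1.21 in this order.

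**Figure D2:**
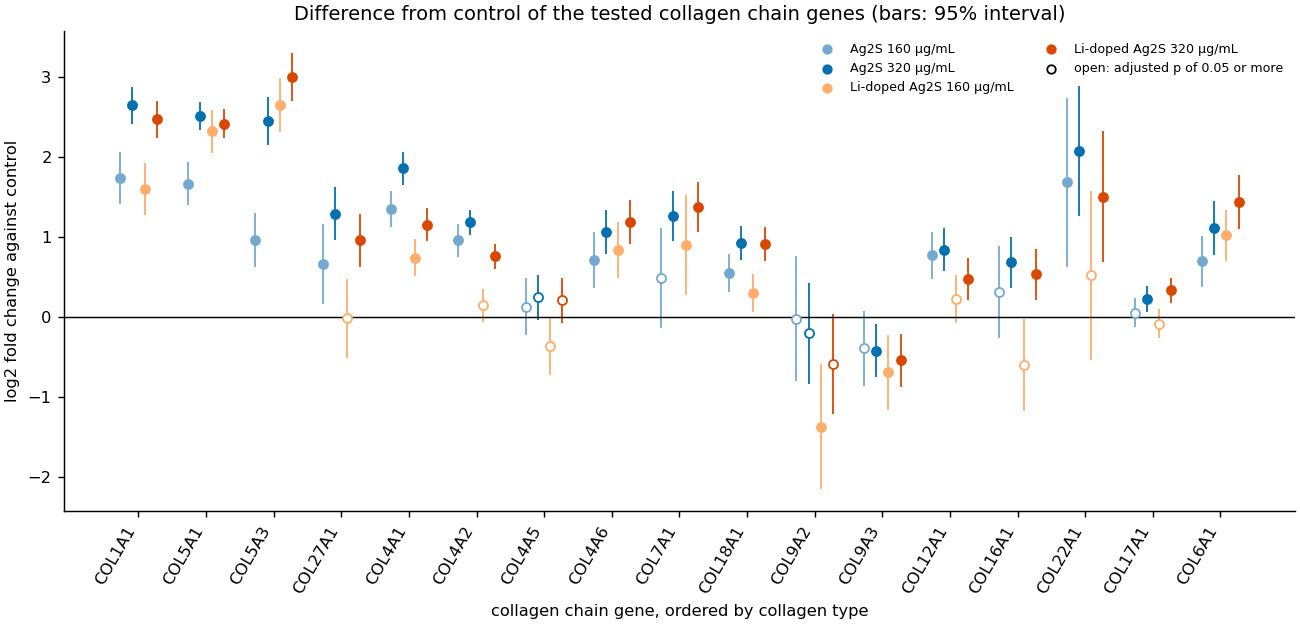
Log2 fold change against control of the 17 tested collagen chain genes by type, with 95% intervals; filled points have an adjusted p under 0.05. COL1A1, COL5A1 and COL5A3 lie highest at 320 µg/mL, and COL9A2 and COL9A3 lie below 0 in all 4 comparisons.

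The fibrillar chains had a median log2 fold change against control of 1.31 and 2.48 with Ag2S NPs at 160 and 320 µg/mL and of 1.96 and 2.44 with Li-doped Ag2S NPs. All 4 that were tested rose in 3 of the 4 comparisons against control, and 3 of the 4 rose with Li-doped Ag2S NPs at 160 µg/mL. In these comparisons 11.5% to 22.6% of all genes rose and 23.8% to 44.6% fell. COL1A1 levels were 6.7, 7.01 and 5.54 FPKM in control. Ag2S NPs gave COL1A1 levels of 24.71, 23.37 and 17.3 at 160 µg/mL and 42.67, 38.65 and 40.24 at 320 µg/mL. COL1A1 levels with Li-doped Ag2S NPs were 17.28, 21.04 and 20.56 and 34.61, 40.22 and 33.07 at these doses. Every treated library was above every control library. The log2 fold changes of COL1A1, the main chain of type I collagen, were 1.74 ± 0.15 (adjusted p = 2.16e-05) and 1.60 ± 0.15 (adjusted p = 4.43e-06) at 160 µg/mL for Ag2S and Li-doped Ag2S NPs.

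COL5A1 levels were 8.16, 8.15 and 8.05 FPKM in control. Ag2S NPs gave COL5A1 levels of 29.51, 28.25 and 21.08 at 160 µg/mL and 48.37, 46.85 and 45.27 at 320 µg/mL. COL5A1 levels with Li-doped Ag2S NPs were 37.82, 40.96 and 44.54 and 46.95, 45.53 and 39.25 at these doses. COL5A1, a chain of type V collagen, which sits inside type I fibrils, rose by 1.67 ± 0.12 (adjusted p = 7.24e-06) with Ag2S NPs and by 2.32 ± 0.12 (adjusted p = 5.55e-08) with Li-doped Ag2S NPs at 160 µg/mL. COL5A3 levels were 1.41, 1.38 and 1.25 FPKM in control. Ag2S NPs gave COL5A3 levels of 2.99, 2.58 and 2.58 at 160 µg/mL and 7.31, 8.08 and 8 at 320 µg/mL. COL5A3 levels with Li-doped Ag2S NPs were 8.31, 8.92 and 9.76 and 12.35, 12.31 and 9.87 at these doses. COL5A3, another type V chain, had the largest log2 fold change of the 17 tested collagen genes in both Li-doped groups, at 2.65 ± 0.15 (adjusted p = 1.05e-07) and 2.999 ± 0.14 (adjusted p = 2.12e-08), and rose by 0.96 ± 0.15 (adjusted p = 0.00106) with Ag2S NPs at 160 µg/mL. The treated libraries of neither gene overlapped the controls.

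COL27A1 levels were 13.31, 13.1 and 12.77 FPKM in control. Ag2S NPs gave COL27A1 levels of 24.78, 24.54 and 14.61 at 160 µg/mL and 32.78, 31.25 and 32.12 at 320 µg/mL. COL27A1 levels with Li-doped Ag2S NPs were 13.99, 16.41 and 9.35 and 29.31, 30.17 and 18.59 at these doses. All libraries but those of Li-doped Ag2S NPs at 160 µg/mL lay above the controls. COL27A1, a fibrillar chain known from cartilage, rose by 1.29 ± 0.15 (adjusted p = 3.64e-05) and 0.96 ± 0.15 (adjusted p = 2.69e-04) with Ag2S and Li-doped Ag2S NPs at 320 µg/mL. Its value with Li-doped Ag2S NPs at 160 µg/mL was -0.02 ± 0.23 (adjusted p = 0.952), with libraries on both sides of the controls. The rise with Ag2S NPs at 160 µg/mL (0.66 ± 0.23, adjusted p = 0.0422) was lost when any control library or library 4 or 5 was left out (adjusted p = 0.0886 to 0.13). It was also lost without the filter (adjusted p = 0.075).

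The 300 base windows around the annotated starts (250 bases before to 50 after, RefSeq, GRCh38.p14) of the type V chains that rose are shown because the pair differs between the particles. Capitals mark CCAAT and GGGCGG on either strand.
COL5A1: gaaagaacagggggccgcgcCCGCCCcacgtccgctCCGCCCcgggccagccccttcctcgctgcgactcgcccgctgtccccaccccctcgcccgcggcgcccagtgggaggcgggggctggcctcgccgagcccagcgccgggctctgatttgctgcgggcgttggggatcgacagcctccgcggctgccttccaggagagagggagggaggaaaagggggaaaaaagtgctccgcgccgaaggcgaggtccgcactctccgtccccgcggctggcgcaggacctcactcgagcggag
COL5A3: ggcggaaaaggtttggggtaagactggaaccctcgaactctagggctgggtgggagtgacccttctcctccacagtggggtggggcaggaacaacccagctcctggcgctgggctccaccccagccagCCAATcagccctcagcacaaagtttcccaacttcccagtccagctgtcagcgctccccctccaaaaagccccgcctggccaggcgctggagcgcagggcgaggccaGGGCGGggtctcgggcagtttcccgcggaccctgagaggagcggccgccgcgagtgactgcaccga
The COL5A1 window is chr9:134641553-134641852 on the plus strand and holds GGGCGG 2 times, both on the minus strand and first at base -230, and no CCAAT. The COL5A3 window is chr19:10010455-10010754 on the minus strand and holds CCAAT at base -122 and GGGCGG at base -16. Over all 35116 windows given by RefSeq, 34.6% held CCAAT and 45% held GGGCGG on a strand, and of the 38 windows that matched 27 of the collagen genes 28.9% and 55.3% did. CAGAC stood in 44.7% of the collagen windows and 45.3% of all, TGANTCA in 2.6% and 7.7%, and TATAAA in 21.1% and 11.5%. These letters were searched on both strands, and no table entry was found for COL1A1, COL1A2, COL2A1, COL3A1, COL5A2, COL6A1, COL6A5, COL8A1, COL9A3, COL20A1 and COL22A1.

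Of the 6 basement membrane chains tested, 4 rose with either particle at 160 µg/mL and 5 at 320 µg/mL, and 0 fell. The shares over all genes were 11.5% to 22.6% that rose and 23.8% to 44.6% that fell. The median log2 fold changes of these chains were 0.63 and 1.13 with Ag2S NPs and 0.52 and 1.03 with Li-doped Ag2S NPs at 160 and 320 µg/mL. COL4A1 levels were 11.65, 11.3 and 10.03 FPKM in control. Ag2S NPs gave COL4A1 levels of 29.99, 28.28 and 26.19 at 160 µg/mL and 43.21, 39.07 and 38.27 at 320 µg/mL. COL4A1 levels with Li-doped Ag2S NPs were 16.33, 18.94 and 20.19 and 26.32, 25.08 and 22.28 at these doses. COL4A1 and COL4A2 encode the chains of the most widespread type IV trimer. COL4A2 levels were 38.32, 34.43 and 34.97 FPKM in control. Ag2S NPs gave COL4A2 levels of 71.88, 73.2 and 64.78 at 160 µg/mL and 80.07, 77.97 and 87.09 at 320 µg/mL. COL4A2 levels with Li-doped Ag2S NPs were 40.18, 35.04 and 44.38 and 61.16, 57.65 and 63.65 at these doses. With Ag2S NPs both were above control in every library, by 1.35 ± 0.10 (adjusted p = 1.06e-05) and 0.96 ± 0.09 (adjusted p = 5.38e-05) at 160 µg/mL. With Li-doped Ag2S NPs at 160 µg/mL COL4A1 rose by 0.74 ± 0.10 (adjusted p = 1.01e-04), while COL4A2 was at 0.15 ± 0.09 (adjusted p = 0.199) and its libraries overlapped the controls, and scaling by the median ratio or leaving out library 11 brought COL4A2 past the threshold (0.33 and 0.24, adjusted p = 0.016 and 0.0464).

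COL4A1 and COL4A2 are transcribed away from each other from starts 127 bases apart (chr13:110307157-110307284, RefSeq, GRCh38.p14). The sequence between the starts is shown because the pair shares it: COL4A1 is read to the left from its first base and COL4A2 to the right from its last, it is printed on the plus strand, and capitals mark CCAAT at bases 23 to 27 and GGGCGG at bases 63 to 68.
COL4A1-COL4A2: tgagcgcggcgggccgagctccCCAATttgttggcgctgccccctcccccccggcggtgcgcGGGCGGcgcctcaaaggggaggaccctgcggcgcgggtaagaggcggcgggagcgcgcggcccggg
The ratio of COL4A1 to COL4A2 FPKM within a library was 0.304, 0.328 and 0.287 in control and 0.54, 0.501 and 0.439 with Ag2S NPs at 320 µg/mL. In both Ag2S and Li-doped Ag2S groups at 160 µg/mL, at 0.386 to 0.417 and 0.406 to 0.541, and with Li-doped Ag2S NPs at 320 µg/mL, at 0.35 to 0.435, it was also above all control libraries. The log2 ratio was higher than in control by 0.40 and 0.68 with Ag2S NPs and by 0.60 and 0.40 with Li-doped Ag2S NPs at 160 and 320 µg/mL (exact permutation test, two-sided, n = 3 and 3, p = 0.1 each, the smallest that this design can give; adjusted p = 0.141 over 24 ratio comparisons).

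COL4A5 and COL4A6 form another divergent pair of type IV chains, with starts 380 bases apart on chromosome X. COL4A6 levels were 4.36, 5.22 and 4.67 FPKM in control. Ag2S NPs gave COL4A6 levels of 8.87, 8.68 and 6.17 at 160 µg/mL and 11.48, 9.65 and 9.11 at 320 µg/mL. COL4A6 levels with Li-doped Ag2S NPs were 8.51, 9.45 and 7.68 and 11.35, 11.33 and 10.11 at these doses. No treated library overlapped the controls. COL4A6, a chain of epithelial basement membranes, rose in all 4 comparisons against control, by 0.71 ± 0.16 to 1.19 ± 0.12. COL4A5 levels were 19.91, 22.37 and 19.36 FPKM in control. Ag2S NPs gave COL4A5 levels of 25.38, 26.51 and 16.66 at 160 µg/mL and 26.03, 26.32 and 20.97 at 320 µg/mL. COL4A5 levels with Li-doped Ag2S NPs were 14.2, 16.28 and 17.35 and 25.15, 26.82 and 19.71 at these doses. COL4A5 libraries overlapped the controls in every group but that of Li-doped Ag2S NPs at 160 µg/mL, which lay below them. Its difference from control was not called in any comparison, with intervals of -0.23 to 0.48 and -0.04 to 0.52 with Ag2S NPs and -0.72 to -0.01 and -0.07 to 0.49 with Li-doped Ag2S NPs at 160 and 320 µg/mL. After scaling by the median ratio COL4A5 rose at 320 µg/mL, by 0.43 (adjusted p = 0.00926) with Ag2S NPs and 0.47 (adjusted p = 0.00484) with Li-doped Ag2S NPs. COL4A5 was also called without library 6 with Ag2S NPs at 160 µg/mL (0.34, adjusted p = 0.0386) and without library 15 with Li-doped Ag2S NPs at 320 µg/mL (0.34, adjusted p = 0.0203). Between control and Li-doped Ag2S NPs at 160 µg/mL alone its fall of 0.37 was called (adjusted p = 0.0113). The ratio of COL4A5 to COL4A6 was 4.57, 4.29 and 4.15 in control, and 1.67 to 3.05 over all treated libraries, lower in each (exact permutation p = 0.1 for every group, adjusted p = 0.141).

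COL7A1 levels were 107.85, 98.29 and 96.85 FPKM in control. Ag2S NPs gave COL7A1 levels of 177.31, 177.37 and 90.44 at 160 µg/mL and 257.99, 213.62 and 258.95 at 320 µg/mL. COL7A1 levels with Li-doped Ag2S NPs were 223.21, 243.66 and 122.01 and 319.24, 279.07 and 202.06 at these doses. Every treated library except library 6 was above the controls. COL7A1 rose by 1.26 ± 0.14 (adjusted p = 2.44e-05) and 1.38 ± 0.14 (adjusted p = 1.12e-05) at 320 µg/mL. At 160 µg/mL libraries 6 and 12 stood far below the other libraries of their groups, and library 6 lay below all 3 controls. The difference was 0.49 ± 0.28 (adjusted p = 0.196) with Ag2S NPs at 160 µg/mL and 0.81 (adjusted p = 0.0292) without library 6; with Li-doped Ag2S NPs it was 0.90 ± 0.28 (adjusted p = 0.0168), and it lost the call without library 10 or 11 (adjusted p = 0.062 and 0.0671).

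The protein-coding transcript of COL7A1, COL7A1-201, was estimated at 50.97, 52.15 and 48.89 FPKM in control, 88.83, 84.19 and 42.06 with Ag2S NPs at 160 µg/mL and 103.61, 88.27 and 88.47 at 320 µg/mL, and 70.44, 76.74 and 45.06 and then 125.78, 143.26 and 69.54 with Li-doped Ag2S NPs. Its share of the gene was 50.3% ± 2.91 in control, 48.0% ± 1.86 and 38.5% ± 3.84 with Ag2S NPs at 160 and 320 µg/mL, and 33.3% ± 3.12 and 41.7% ± 8.69 (SD, n = 3) with Li-doped Ag2S NPs at 160 and 320 µg/mL. Most of the remainder went to 3 transcripts annotated as retained introns, COL7A1-205, COL7A1-210 and COL7A1-206. Such shares are Cufflinks estimates in which transcripts share reads, and they were not tested.

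**Figure D3:**
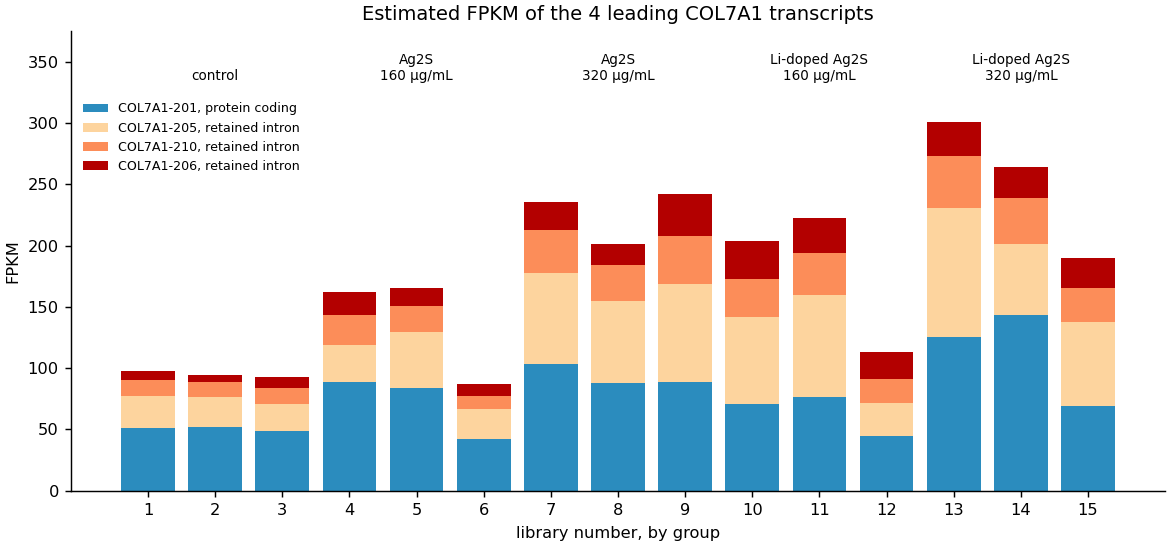
Stacked bars of the estimated FPKM of the 4 leading COL7A1 transcripts in each of the 15 libraries; the lowest segment is the protein-coding transcript and the others are retained introns. Libraries 6, 12 and 15 are the shortest bars of their groups, and the retained-intron segments are larger in the 320 µg/mL and Li-doped libraries than in control.

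The start window of COL7A1 (chr3:48595280-48595579, minus strand, GRCh38.p14) is shown because this gene holds the second highest level; capitals mark GGGCGG, which it holds at bases -77 and -48 and, on the other strand, at base -18.
COL7A1: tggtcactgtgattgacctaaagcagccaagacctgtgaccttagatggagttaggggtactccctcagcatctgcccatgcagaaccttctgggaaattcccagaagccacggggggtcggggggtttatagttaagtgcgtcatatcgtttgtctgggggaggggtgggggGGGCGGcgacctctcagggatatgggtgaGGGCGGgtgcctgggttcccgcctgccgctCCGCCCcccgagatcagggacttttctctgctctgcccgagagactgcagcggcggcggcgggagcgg
COL18A1 levels were 22.2, 22.45 and 24.48 FPKM in control. Ag2S NPs gave COL18A1 levels of 38.3, 35 and 28.38 at 160 µg/mL and 44.75, 39.17 and 47.78 at 320 µg/mL. COL18A1 levels with Li-doped Ag2S NPs were 26.44, 29.19 and 29.28 and 48.63, 41.98 and 40.31 at these doses. The controls were below each treated library. COL18A1, whose chain carries the endostatin fragment, rose in all 4 comparisons against control, by 0.92 ± 0.10 (adjusted p = 1.41e-05) and 0.92 ± 0.10 (adjusted p = 1.32e-05) at 320 µg/mL and by 0.55 ± 0.11 (adjusted p = 0.00374) and 0.30 ± 0.11 (adjusted p = 0.0337) at 160 µg/mL. The last of these calls was lost without control library 1 or 2 or library 11 or 12 (adjusted p = 0.086 to 0.0969).

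FACIT chains coat fibrils. Of 5 tested, 2 rose with Ag2S NPs and 0 with Li-doped Ag2S NPs at 160 µg/mL, and 3 rose with either particle at 320 µg/mL. In the other direction 2 fell with Li-doped Ag2S NPs at 160 µg/mL, 1 fell with either particle at 320 µg/mL and 0 fell with Ag2S NPs at 160 µg/mL. Over all genes 11.5% rose and 23.8% fell with Ag2S NPs and 22.6% and 40.6% with Li-doped Ag2S NPs at 160 µg/mL, and at 320 µg/mL these shares were 16.2% and 36.2%, and 17% and 44.6%. COL12A1 levels were 17.88, 16.91 and 16.65 FPKM in control. Ag2S NPs gave COL12A1 levels of 35.81, 28.83 and 24.29 at 160 µg/mL and 31.6, 32.16 and 28.82 at 320 µg/mL. COL12A1 levels with Li-doped Ag2S NPs were 17.61, 22.31 and 20.43 and 25.71, 27.66 and 19.21 at these doses. Overlap with the controls was seen only with Li-doped Ag2S NPs at 160 µg/mL. COL12A1 rose by 0.77 ± 0.14 (adjusted p = 0.00195) and 0.84 ± 0.12 (adjusted p = 1.61e-04) with Ag2S NPs and by 0.48 ± 0.12 (adjusted p = 0.00533) with Li-doped Ag2S NPs at 320 µg/mL, and was at 0.22 ± 0.14 (adjusted p = 0.172) with the latter at 160 µg/mL, a difference that was called after scaling by the median ratio (0.41, adjusted p = 0.0156).

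COL16A1 levels were 35.85, 31.98 and 31.64 FPKM in control. Ag2S NPs gave COL16A1 levels of 51.93, 46.51 and 29.09 at 160 µg/mL and 57.94, 49.3 and 52.56 at 320 µg/mL. COL16A1 levels with Li-doped Ag2S NPs were 26.42, 27.92 and 13.96 and 53.38, 57.33 and 36.23 at these doses. COL16A1 libraries overlapped the controls with Ag2S NPs at 160 µg/mL, at 0.32 ± 0.26 (adjusted p = 0.363). COL16A1, a FACIT chain of skin, was above the controls in all libraries at 320 µg/mL. It rose there by 0.68 ± 0.14 (adjusted p = 0.00234) and 0.54 ± 0.14 (adjusted p = 0.00773). With Li-doped Ag2S NPs at 160 µg/mL all 3 libraries lay below all controls, at -0.60 ± 0.26 (adjusted p = 0.0634), and this fall was called without library 11 (-0.78, adjusted p = 0.0334) and between these groups alone (adjusted p = 0.04999). Leaving out libraries 6, 12 and 15 together, a choice made after seeing the data, gave 0.57 (adjusted p = 0.00103) with Ag2S NPs and -0.28 (adjusted p = 0.0129) with Li-doped Ag2S NPs at 160 µg/mL.

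COL22A1 levels were 0.33, 0.32 and 0.95 FPKM in control. Ag2S NPs gave COL22A1 levels of 1.68, 1.44 and 2.2 at 160 µg/mL and 2.99, 1.9 and 2.2 at 320 µg/mL. COL22A1 levels with Li-doped Ag2S NPs were 0.37, 0.73 and 1.33 and 1.44, 1.22 and 2.03 at these doses. Here too only the Li-doped group at 160 µg/mL overlapped the controls. COL22A1 rose by 1.69 ± 0.48 (adjusted p = 0.0204) and 2.08 ± 0.37 (adjusted p = 7.79e-04) with Ag2S NPs and by 1.50 ± 0.37 (adjusted p = 0.00471) with Li-doped Ag2S NPs at 320 µg/mL. Its mean level was 0.53 FPKM in control and 0.81 with Li-doped Ag2S NPs at 160 µg/mL, under the filter of 1. COL22A1 was therefore tested only because of the groups where it was high. Its calls, and its place in the counts of genes that rose, are no separate support for a rise. The rise with Ag2S NPs at 160 µg/mL lost its call without control library 1 (1.48, adjusted p = 0.071) or 2 (1.46, adjusted p = 0.0722).

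COL9A2 and COL9A3, chains of the cartilage collagen IX, were below control or not called. COL9A3 levels were 20.65, 16.57 and 13.58 FPKM in control. Ag2S NPs gave COL9A3 levels of 10, 13.19 and 15.56 at 160 µg/mL and 11.01, 12.22 and 14.27 at 320 µg/mL. COL9A3 levels with Li-doped Ag2S NPs were 13.57, 9.27 and 8.62 and 10.47, 12.08 and 11.83 at these doses. Both Li-doped groups lay below the controls, and both Ag2S groups overlapped them. COL9A3 fell by 0.69 ± 0.21 (adjusted p = 0.0148) with Li-doped Ag2S NPs at 160 µg/mL and by 0.42 ± 0.15 (adjusted p = 0.0347) and 0.54 ± 0.15 (adjusted p = 0.00889) with Ag2S and Li-doped Ag2S NPs at 320 µg/mL. All of these calls were lost under scaling by the median ratio, where the values were -0.51, -0.24 and -0.28 (adjusted p = 0.0602, 0.234 and 0.149). The Ag2S call at 320 µg/mL was also lost without control library 1 or 2 or library 7 or 8, where the value lay between -0.27 and -0.43. Without the filter this Ag2S call was lost too (adjusted p = 0.0572). The call with Li-doped Ag2S NPs at 160 µg/mL was lost as well without control library 1 or library 11 or 12 (-0.54 to -0.62, adjusted p = 0.0501 to 0.0651). COL9A2 levels were 2.37, 2.26 and 2.14 FPKM in control. Ag2S NPs gave COL9A2 levels of 1.85, 2.26 and 2.61 at 160 µg/mL and 1.18, 2.85 and 2.15 at 320 µg/mL. COL9A2 levels with Li-doped Ag2S NPs were 1.06, 1.25 and 0.38 and 1.74, 1.42 and 1.28 at these doses. The pattern of overlap was that of COL9A3. COL9A2 fell with Li-doped Ag2S NPs at 160 µg/mL, by 1.37 ± 0.35 (adjusted p = 0.00583).

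The COL9A3 signal came almost wholly from transcripts that are not annotated as protein coding. COL9A3-207, a processed transcript of the 3′ end of the gene (chr20:62836419-62841159, GRCh38, plus strand, within the gene at chr20:62816244-62841159), took 76.3% to 86.2% of the gene's FPKM as group means, and the annotated coding transcripts together took at most 1.85% in any library. COL9A3-208, a retained intron, was at 0.48 to 3.62 FPKM over the 15 libraries. The gene TCFL5 on the other strand overlaps only the last 45 bases of COL9A3.

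Among transmembrane chains COL17A1 passed the filter and rose at 320 µg/mL. COL17A1 levels were 386.91, 391.94 and 389.6 FPKM in control. Ag2S NPs gave COL17A1 levels of 449.78, 412.49 and 355.67 at 160 µg/mL and 478.85, 435.05 and 452.93 at 320 µg/mL. COL17A1 levels with Li-doped Ag2S NPs were 366.09, 379.26 and 358.21 and 501.33, 532.36 and 442.88 at these doses. COL17A1 was above control there by 0.23 ± 0.07 (adjusted p = 0.0216) and 0.33 ± 0.07 (adjusted p = 0.00207), and stood at 0.05 ± 0.08 (adjusted p = 0.63) and -0.08 ± 0.08 (adjusted p = 0.39) at 160 µg/mL. The call with Ag2S NPs at 320 µg/mL was lost when any control library or library 7 or 9 was left out (adjusted p = 0.0509 to 0.0737). COL13A1 levels were 0.16, 0.75 and 0.13 FPKM in control. Ag2S NPs gave COL13A1 levels of 0.47, 0.43 and 0.63 at 160 µg/mL and 0.96, 0.8 and 1.07 at 320 µg/mL. COL13A1 levels with Li-doped Ag2S NPs were 2, 2.36 and 1.63 and 0.48, 0.89 and 0.34 at these doses. COL13A1, a transmembrane chain of cell contacts, was too low for the filter and highest with Li-doped Ag2S NPs at 160 µg/mL, where all 3 libraries were above every other library of the series.

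Among the other chains, 1 passed the filter. COL6A1 levels were 5.82, 5.15 and 4.07 FPKM in control. Ag2S NPs gave COL6A1 levels of 8.73, 7.82 and 7.76 at 160 µg/mL and 9.48, 11.24 and 12.06 at 320 µg/mL. COL6A1 levels with Li-doped Ag2S NPs were 10.33, 9.25 and 11.01 and 11.98, 13.55 and 15.41 at these doses. All treated libraries were above all controls. COL6A1, a chain of the beaded filaments of type VI collagen, rose in all 4 comparisons against control, by 0.69 ± 0.14 (adjusted p = 0.00449) and 1.12 ± 0.15 (adjusted p = 1.20e-04) with Ag2S NPs and by 1.02 ± 0.14 (adjusted p = 9.96e-05) and 1.43 ± 0.15 (adjusted p = 1.65e-05) with Li-doped Ag2S NPs. COL8A2 levels were 0.09, 0.14 and 0.04 FPKM in control. Ag2S NPs gave COL8A2 levels of 0.33, 0.51 and 0.27 at 160 µg/mL and 0.89, 0.53 and 0.89 at 320 µg/mL. COL8A2 levels with Li-doped Ag2S NPs were 1, 1.55 and 1.45 and 0.74, 0.98 and 0.85 at these doses. COL8A2, a network-forming short chain, was below every treated library in all 3 controls.

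**Figure D4:**
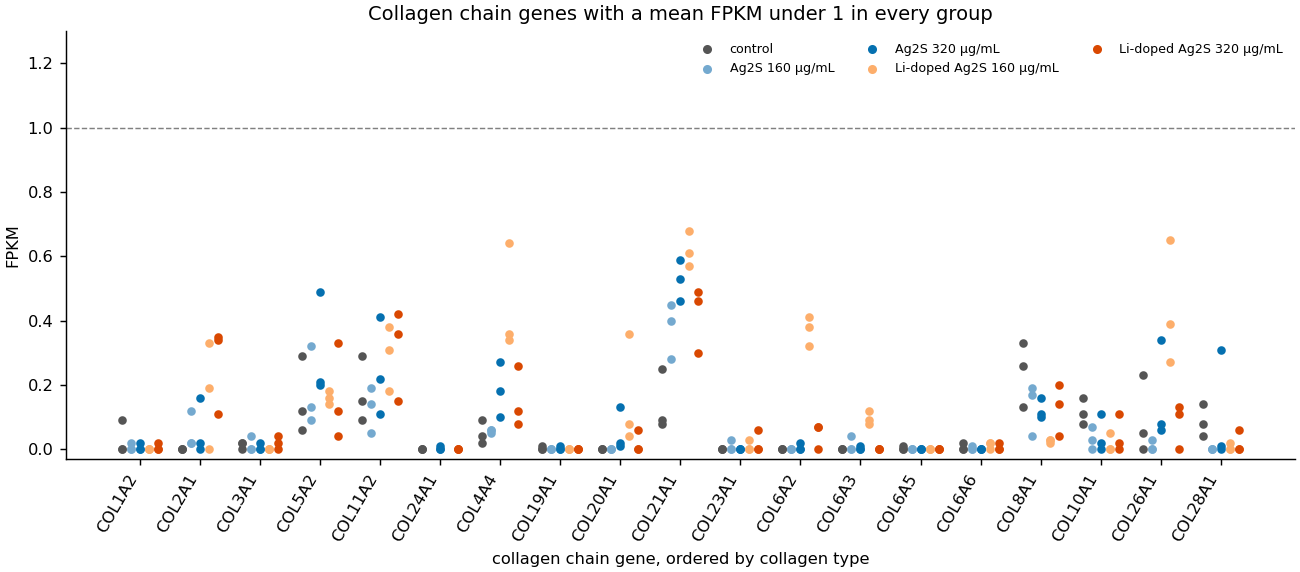
FPKM of the 19 collagen chain genes whose mean is under 1 in every group; each point is a library, coloured by group, and the dashed line marks 1. COL4A4, COL6A2 and COL6A3 are highest in the 3 libraries with Li-doped Ag2S NPs at 160 µg/mL.

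A fit without the filter held 38 members at 320 µg/mL, and 37, without COL24A1, at 160 µg/mL and for comparisons between doses. It included those that were too low for the main fit. Of the 20 low collagen genes of the 160 µg/mL table, 8 rose and 3 fell with Li-doped Ag2S NPs, where 18.7% of all genes in that fit rose and 28.2% fell, and 2 rose and 1 fell with Ag2S NPs, where 7.4% rose and 14.5% fell. COL6A2 was at 0.41, 0.38 and 0.32 FPKM with Li-doped Ag2S NPs at 160 µg/mL, was listed at 0 in all libraries of control and of Ag2S NPs at 160 µg/mL, and reached at most 0.07 in any library at 320 µg/mL. COL6A3, another chain of type VI collagen, was at 0.09, 0.08 and 0.12 in that group and at no more than 0.04 in any other library. COL4A4 was at 0.36, 0.34 and 0.64 against 0.02, 0.09 and 0.04 in control, a log2 difference of 1.85 (adjusted p = 4.15e-04) on a scale where the added 0.1 shrinks changes of such low genes.

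COL8A2 rose in this fit in all 4 comparisons against control, by 1.31 (adjusted p = 0.0185) and 2.20 (adjusted p = 4.05e-04) with Ag2S NPs and by 2.93 (adjusted p = 5.27e-05) and 2.36 (adjusted p = 2.31e-04) with Li-doped Ag2S NPs. COL13A1 rose by 2.49 (adjusted p = 0.00172) with Li-doped Ag2S NPs at 160 µg/mL. COL21A1, a FACIT chain, was at 0.25, 0.08 and 0.09 FPKM in control and at 0.28 to 0.68 in the treated libraries. COL8A1 was at 0.33, 0.26 and 0.13 in control and at 0.03, 0.02 and 0.03 with Li-doped Ag2S NPs at 160 µg/mL. At 320 µg/mL, of 21 low genes 3 rose and 0 fell with either particle, where 12.6% of all genes rose and 23.5% fell with Ag2S NPs. The shares were 12.9% and 30.4% with Li-doped Ag2S NPs.

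Among the 20 low genes, 7 were higher and 0 lower with Li-doped than with Ag2S NPs at 160 µg/mL (1 lower at an unadjusted p under 0.05), where 17% of all genes in the unfiltered fit were higher and 19.3% lower. The 7 were COL4A4, COL6A2, COL6A3, COL8A2, COL13A1, COL20A1 and COL26A1. From 160 to 320 µg/mL of Li-doped Ag2S NPs 0 low genes rose (1 unadjusted) and 5 fell, namely COL4A4, COL6A2, COL6A3, COL13A1 and COL26A1, where 13.4% of all genes rose and 17.7% fell. The same 5 and COL8A2 had a smaller dose difference with the doped particle, where 13.6% of all genes had a larger and 15.1% a smaller one. Between the particles at 320 µg/mL 0 low genes were called by limma (1 higher and 0 lower unadjusted), where 5.61% of all genes were higher and 9.01% lower. Between the doses of Ag2S NPs 0 were called (3 rose and 0 fell unadjusted), where 3.17% of all genes rose and 4.68% fell.

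The particles were compared at matched doses for the 17 tested genes, which gave 34 comparisons with p-values adjusted over all genes. With Li-doped Ag2S NPs in place of Ag2S NPs at 160 µg/mL 2 collagen genes were higher and 7 lower, where 21.4% of all genes were higher and 29% lower. At 320 µg/mL 1 was higher and 3 were lower, where 10.1% of all genes were higher and 16.1% lower, and 12.1% and 12% after scaling by the median ratio. With the doped particle COL4A1 and COL4A2 fell by 0.61 ± 0.10 and 0.81 ± 0.09 at 160 µg/mL (adjusted p = 6.61e-04 and 4.13e-05) and by 0.71 ± 0.09 and 0.42 ± 0.07 at 320 µg/mL (adjusted p = 4.84e-04 and 0.00208), relative to Ag2S NPs, without overlap of libraries.

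COL5A3 was higher with the doped particle at both doses, by 1.69 ± 0.15 (adjusted p = 6.20e-06) and 0.55 ± 0.14 (adjusted p = 0.0145), although the call at 320 µg/mL was lost without library 7 or 13 (adjusted p = 0.063 and 0.054). COL5A1 was higher at 160 µg/mL by 0.66 ± 0.12 (adjusted p = 0.00115), and at 320 µg/mL its difference of -0.10 ± 0.08 had an interval of -0.28 to 0.08. The ratio of COL5A3 to COL5A1 was 0.173, 0.169 and 0.155 in control, 0.0913 to 0.122 and 0.151 to 0.177 with Ag2S NPs at 160 and 320 µg/mL, and 0.218 to 0.22 and 0.251 to 0.27 with Li-doped Ag2S NPs, so the doped libraries lay above all others at both doses (exact permutation p = 0.1, adjusted p = 0.141).

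Further genes with lower levels under Li-doped than under Ag2S NPs at 160 µg/mL were COL4A5 (-0.49 ± 0.16, adjusted p = 0.0256), COL9A2 (-1.35 ± 0.35, adjusted p = 0.00851), COL12A1 (-0.55 ± 0.14, adjusted p = 0.00637), COL16A1 (-0.92 ± 0.26, adjusted p = 0.0127) and COL27A1 (-0.68 ± 0.23, adjusted p = 0.0271). At 320 µg/mL COL12A1 (-0.37 ± 0.12, adjusted p = 0.0456) was the only further one, and its call was lost without the filter, under scaling, between these groups alone and without any of libraries 7, 8, 9, 13 and 15 (adjusted p = 0.0534 to 0.128). Of the calls at 160 µg/mL, that of COL27A1 was lost between these groups alone and without library 4, 5 or 12 (adjusted p = 0.0509 to 0.0978), that of COL4A5 without library 4, 5, 10 or 11 (adjusted p = 0.0509 to 0.102) and that of COL16A1 without library 4 (adjusted p = 0.0525). COL1A1 was not called between particles at either dose, with intervals of -0.47 to 0.19 and -0.41 to 0.06. The same holds for COL4A6, with -0.23 to 0.47 and -0.15 to 0.39, and for COL7A1, with -0.22 to 1.03 and -0.20 to 0.42. COL7A1 was called higher with the doped particle at 160 µg/mL without library 12 (0.72, adjusted p = 0.0354, against 0.41 with it) and at 320 µg/mL without library 15 (0.30, adjusted p = 0.0415, against 0.11 with it).

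**Figure D5:**
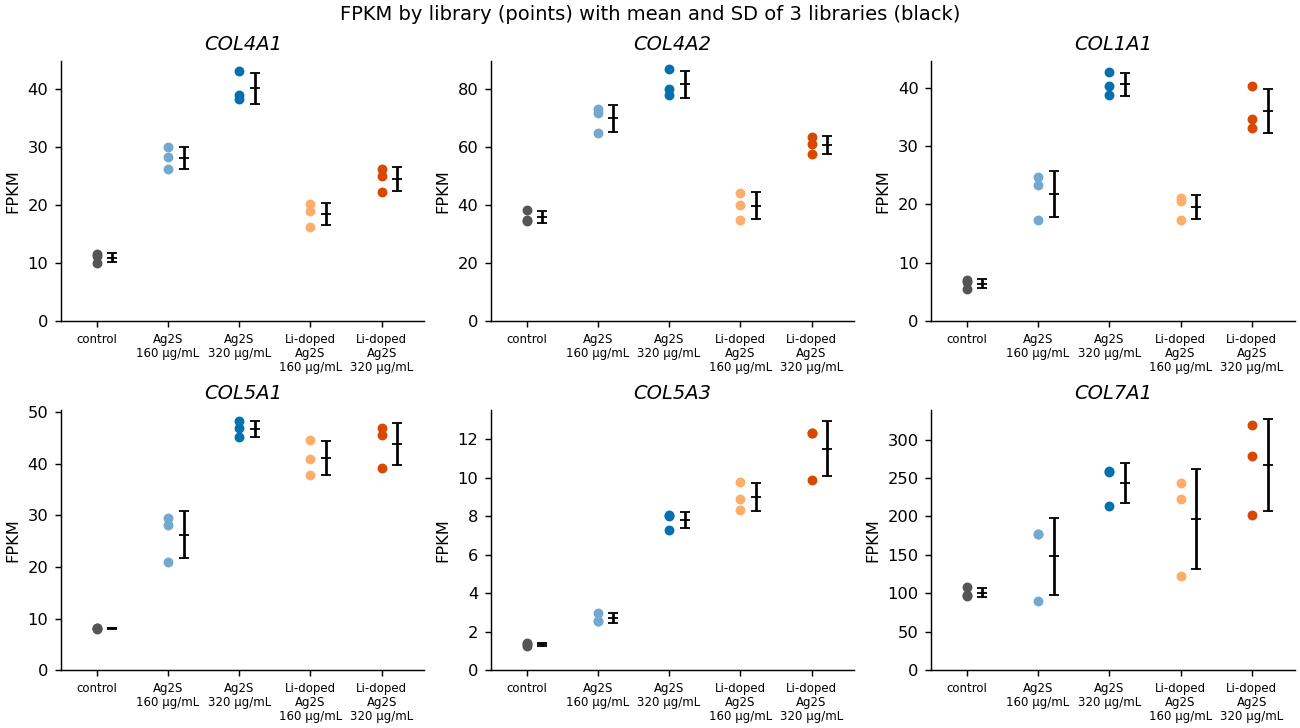
FPKM of COL4A1, COL4A2, COL1A1, COL5A1, COL5A3 and COL7A1 in each library (points) with the mean and SD of the 3 libraries of a group (black), by particle and dose. COL4A1 and COL4A2 are lower and COL5A3 is higher with Li-doped than with Ag2S NPs at both doses, and COL5A1 is near its 320 µg/mL level already at 160 µg/mL with the doped particle.

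From 160 to 320 µg/mL 5 collagen genes rose and 0 fell with Ag2S NPs (0 also at an unadjusted p under 0.05), where 4.84% of all genes rose and 7.68% fell, and 10 rose and 0 fell with Li-doped Ag2S NPs, where 19.6% rose and 23.3% fell (0 again unadjusted). After scaling by the median ratio 6.57% of all genes rose and 5.19% fell with dose under Ag2S NPs. COL1A1 rose by 0.91 ± 0.13 (adjusted p = 4.47e-04) with Ag2S NPs and 0.87 ± 0.13 (adjusted p = 9.14e-05) with Li-doped Ag2S NPs, COL4A1 by 0.51 ± 0.10 (adjusted p = 0.00374) and 0.41 ± 0.10 (adjusted p = 0.00378), and COL5A3 by 1.49 ± 0.13 (adjusted p = 3.32e-06) and 0.35 ± 0.13 (adjusted p = 0.0425). The smallest of these rises, that of COL5A3 with Li-doped Ag2S NPs, lost its call without library 10, 11, 13 or 14 (adjusted p = 0.0945 to 0.142). It was also lost without the filter (adjusted p = 0.0563) and between these groups alone (adjusted p = 0.0775). COL5A1 and COL18A1 were the others that rose with Ag2S NPs, by 0.85 ± 0.11 (adjusted p = 1.86e-04) and 0.38 ± 0.11 (adjusted p = 0.0353). The latter lost its call without library 5, 6, 7 or 9 (0.26 to 0.41, adjusted p = 0.0549 to 0.144). The COL18A1 call was lost as well without the filter (adjusted p = 0.0509) and between these groups alone (adjusted p = 0.0947).

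With Li-doped Ag2S NPs the higher dose also raised COL4A2 (0.61 ± 0.09, adjusted p = 4.69e-05), COL16A1 (1.14 ± 0.25, adjusted p = 0.00159), COL27A1 (0.97 ± 0.22, adjusted p = 0.0024), COL17A1 (0.42 ± 0.08, adjusted p = 9.63e-04), COL18A1, COL4A5 and COL6A1, of which COL6A1 lost its call without library 10, 11, 14 or 15 (adjusted p = 0.056 to 0.112). The dose difference itself differed between the particles for 3 of the 17 genes: it was larger with the doped particle for COL4A2 (0.39 ± 0.12, adjusted p = 0.0204) and smaller for COL5A1 (-0.75 ± 0.16, adjusted p = 0.00148) and COL5A3 (-1.14 ± 0.18, adjusted p = 1.78e-04), where 20.2% of all genes had a larger and 19.5% a smaller one. The COL4A2 call was lost without library 5, 8 or 11 (adjusted p = 0.05 to 0.057). Without libraries 6, 12 and 15, 7 genes had a larger dose difference with the doped particle: COL4A2, COL4A5, COL12A1, COL16A1, COL17A1, COL18A1 and COL27A1.

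Leading transcripts were protein coding in 17 of the 19 genes that reached 1 FPKM, the exceptions being COL9A3 and the low COL13A1, and in 14 of the 19 the leading transcript took over 50% of the gene's FPKM in every group. COL13A1-208 led only through control, where it took 0% to 100% of the gene by library. In the treated groups COL13A1-208 took 4.2% to 10.3% as group means, and the coding transcripts of COL13A1 took 76.3% to 89.4%. COL5A3 was almost wholly COL5A3-201 (97.2% to 100% as group means), and COL5A1 was mostly COL5A1-201 (87.9% to 93.3%). COL7A1 stood at 50.3% or less for its leading transcript. COL12A1-201, the leading transcript of COL12A1, took 63.6% in control, 55.5% and 52.7% with Ag2S NPs at 160 and 320 µg/mL, and 65.6% and 54% with Li-doped Ag2S NPs. COL18A1-204 took 72.3% of the gene in control and 79.3% to 87.6% in treated groups, while the processed transcript COL18A1-206 took 22.3% in control and 1.9% to 11.3% in the others. By library COL18A1-206 took 16.4% to 32.3% in control, 0% to 18.5% with Ag2S NPs and 0% to 18.2% with Li-doped Ag2S NPs at 160 µg/mL. COL18A1-204 libraries overlapped the controls in all treated groups but Ag2S NPs at 320 µg/mL. COL12A1-201 libraries did so in all but Li-doped Ag2S NPs at 320 µg/mL. These shares were not tested.

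The genes that modify, export, trim, link, bind and cut collagen were read from lists of known genes and stand beside shares of all genes that rose and fell of 11.5% and 23.8% with Ag2S NPs and 22.6% and 40.6% with Li-doped Ag2S NPs at 160 µg/mL, and of 16.2% and 36.2% and then 17% and 44.6% at 320 µg/mL. Of 14 hydroxylation and glycosylation genes 11 were tested, of which 5 rose and 1 fell with Ag2S NPs at 160 µg/mL and 6 rose and 1 fell at 320 µg/mL. The doped particle raised 8 and lowered 2 at either dose. P4HA2, a catalytic subunit of prolyl 4-hydroxylase, rose by 1.00 (adjusted p = 5.63e-07) with Li-doped Ag2S NPs at 160 µg/mL, and P4HB, its partner subunit, by 1.20 (adjusted p = 2.76e-07). P4HA1, the other main catalytic subunit, fell by 0.94 (adjusted p = 4.30e-06) with Li-doped Ag2S NPs at 320 µg/mL. Its mean was 38.7 FPKM in control, 33.2 and 44.0 with Ag2S NPs and 43.1 and 20.1 with Li-doped Ag2S NPs at 160 and 320 µg/mL. For P4HB the dose difference was smaller with the doped particle, at -0.88 (adjusted p = 1.76e-05).

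Of 7 folding and export genes 6 were tested, of which 1 rose and 1 fell with Ag2S NPs at 160 µg/mL and 2 rose and 1 fell at 320 µg/mL. The doped particle raised 3 and lowered 1 at 160 µg/mL and raised 1 and lowered 2 at 320 µg/mL. SEC24D, a coat protein of the vesicles that export collagen, rose by 1.39 (adjusted p = 1.75e-06) and SERPINH1, the collagen chaperone HSP47, fell by 0.68 (adjusted p = 7.90e-06) with Li-doped Ag2S NPs at 160 µg/mL. MIA3, which loads collagen into these vesicles, fell by 0.73 (adjusted p = 0.00166) and 1.04 (adjusted p = 1.17e-04) with Ag2S and Li-doped Ag2S NPs at 320 µg/mL. Of 8 trimming genes 3 were tested at 160 µg/mL, where 0 changed with Ag2S NPs, while the doped particle raised 1 and lowered 2. The gene that rose was TLL2, with means of 0.60 FPKM in control, 0.78 with Ag2S NPs and 2.05 with Li-doped Ag2S NPs. TLL2 was tested only because of the group where it was high, so its call is no separate support for a rise. Among the genes that fell was BMP1, the procollagen C-proteinase, by 0.58 (adjusted p = 2.53e-05). At 320 µg/mL 2 were tested, of which 1 rose with Ag2S NPs, a call lost whichever single library was left out, and 0 were called with Li-doped Ag2S NPs.

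Among 5 cross-linking genes 3 were tested and 2 rose with either particle at 160 µg/mL, with 0 falling; at 320 µg/mL 2 rose with Ag2S NPs and 1 with Li-doped Ag2S NPs. LOXL1, a lysyl oxidase, rose by 2.35 (adjusted p = 2.82e-06) and 2.86 (adjusted p = 5.65e-08) at 160 µg/mL. Of 11 collagen receptors 5 were tested, and 3 rose and 1 fell with either particle at 160 µg/mL and with Ag2S NPs at 320 µg/mL, against 2 and 1 with Li-doped Ag2S NPs. MRC2, which takes up collagen for degradation, rose by 1.35 (adjusted p = 2.98e-06) and 1.29 (adjusted p = 4.14e-07) at 160 µg/mL. Of 7 collagen-cutting proteases 6 were tested, and at either dose 4 rose and 0 fell with Ag2S NPs, while the doped particle raised 3 and lowered 2. At 160 µg/mL MMP1, the interstitial collagenase, rose by 1.20 (adjusted p = 1.33e-06) and 2.37 (adjusted p = 9.54e-10), whereas MMP13, another collagenase, rose by 0.27 (adjusted p = 0.00614) with Ag2S NPs and fell by 2.89 (adjusted p = 6.40e-11) with Li-doped Ag2S NPs.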

How the data were processed

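HaCaT RNA was sequenced in 15 libraries, 3 per group. The submitters' processing notes name TopHat, Cufflinks 2.1.1 and Cuffdiff, and the methods state multi-read and fragment bias correction; the sources used here give no genome build. The authors deposited FPKM per gene and per transcript in a table for each dose, with the same control values, and no read counts, so depth is unknown. All 18179 gene identifiers were found in GENCODE v29, whose GRCh38 coordinates are given. Columns of the authors' own comparisons (group values, fold changes, p- and q-values) were not used.

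Genes whose FPKM averaged 1 or more in a fit's libraries were tested on log2(FPKM + 0.1) with limma 3.58.1 (trended eBayes) in R 4.3.3, in a fit of 9 libraries for each dose and of 15 for dose and its interaction with particle. Chain ratios were compared by two-sided exact permutation tests where both chains had a group mean of at least 0.1, which left out 3 of 7 pairs. Python 3.11.15 with NumPy 2.4.6, pandas 2.3.3 and SciPy 1.17.1 was used. The fitting scripts were tested on simulated data. Per-library values are given for each collagen gene that reached a group mean of 1, and of a pathway list up to 4 genes with the smallest p in a comparison may be named. The members and lists were chosen with earlier results of these data known. Alternatives were other pseudocounts and filters, scaling by the median ratio, robust eBayes, fits of the compared groups alone and leaving out libraries.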

Additional observations from a re-analysis of the deposited data

Results flagged for a closer look

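The difference between doses differed between the particles for 3 collagen genes by the interaction term of limma over all 15 libraries. For COL4A2 the log2 difference from 160 to 320 µg/mL was larger with Li-doped Ag2S NPs by 0.39 (adjusted p = 0.0204). For COL5A1 and COL5A3 the interaction was -0.75 (adjusted p = 0.00148) and -1.14 (adjusted p = 1.78e-04), with a smaller dose difference under the doped particle. Over all genes 20.2% had a larger and 19.5% a smaller dose difference under the doped particle, beside 3 of 17 tested collagen genes. The COL4A2 call was lost without library 5, 8 or 11 (adjusted p = 0.05 to 0.057).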

How the results depend on the processing

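No paired analysis was possible because the replicate numbers run from 1 to 15 and no groups share a number. Of 2196 values of single collagen genes under the alternatives, 2066 stayed on the same side of the threshold, 71 lost and 59 gained a call. Where either fit gave a call, 0 changed sign. The signs of values that were called in neither fit were not compared, and some of these did change. Of 262 counts of collagen genes 229 stayed within 1.5 times the value reported. With no filter, 1 fell with Ag2S NPs at 160 µg/mL, 16 rose and 5 fell with Li-doped Ag2S NPs at 160 µg/mL, 9 were higher with Li-doped than with Ag2S NPs at 160 µg/mL, 0 fell with Ag2S NPs at 320 µg/mL, 5 fell between doses of Li-doped Ag2S NPs and 8 had a smaller dose difference; more genes were tested there. With a mean FPKM of at least 5, 1 fell with Li-doped Ag2S NPs and 1 was higher than with Ag2S NPs at 160 µg/mL. Scaling by the median ratio left 1 that fell with Li-doped Ag2S NPs at 160 µg/mL and 0 with either particle at 320 µg/mL, and 2 with a larger dose difference. With the compared groups alone 4 fell with Li-doped Ag2S NPs at 160 µg/mL, 2 at 320 µg/mL and 1 between its doses. Without libraries 6, 12 and 15, chosen after seeing the data, 4 fell with Li-doped Ag2S NPs at 160 µg/mL, 3 were higher with Li-doped than with Ag2S NPs at 320 µg/mL and 7 had a larger dose difference. Leaving out single libraries gave 1 to 2 that fell with Li-doped Ag2S NPs at 160 µg/mL, 4 to 9 that were lower and, at 320 µg/mL, 0 to 3 that were higher with Li-doped than with Ag2S NPs, 0 to 1 that fell with Ag2S NPs at 320 µg/mL, and 0 to 4 with a larger dose difference. Apart from the wider or narrower gene set, the cause was not tested. Of 168 chain ratios 2 moved, of 90 transcript shares 2, and of 1572 pathway list counts 140. Without counts, the precision of low levels cannot be given.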
